A study of Mus musculus with 8 samples.

Results

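Matrix metalloproteases (MMPs) and the tissue inhibitors of metalloproteases (TIMPs) were followed in endothelial cell preparations of the mouse colon early after bone marrow transplantation. The set was a list of 10 genes, 7 Mmp and 3 Timp genes, taken by gene symbol and chosen with earlier results of these data known. Of these, 9 were measured among the 22180 genes with a probe set of their own (Mmp2, Mmp7, Mmp9, Mmp10, Mmp13, Mmp14, Timp1, Timp2 and Timp3), and Mmp15 was not analysed here. All recipients were female C57BL/6 mice that had 5 days of busulfan and cyclophosphamide conditioning and were then given bone marrow together with T cells. The allogeneic group (n = 4) had LP/J donors, and the syngeneic group (n = 4) had C57BL/6 donors, so that conditioning and transplantation were common to both. Colon was taken at day 2 after transplantation and digested with collagenase IV. The CD45-CD11b-CD31+ cells were sorted, and the RNA of each sample was amplified from a picogram input and hybridised to 1 Affymetrix Mouse Gene 2.0 array. Values are normalised log2 signals, so a difference of 1 is a 2-fold difference.

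MMPs are zinc-dependent proteases that are made as inactive proenzymes and, once active, cut collagens, basement membrane proteins and many cell surface and secreted proteins. Most are secreted, while the membrane-type enzymes such as that of Mmp14 stay on the cell surface. TIMPs bind active MMPs in a tight complex, and the balance of the proteases with these inhibitors sets how fast matrix around vessels and crypts is turned over. The family is known in the gut for matrix breakdown during inflammation and wound repair.

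Signals ran from 1.39 to 13.9, with array medians between 4.68 and 4.79. Genes of the Y chromosome, which female recipients lack, reached at most 3.18 (3 genes) and served as a guide to background. None of a list of 18 endothelial genes, which included Pecam1 and Cdh5, lay at or below 3.18 on average. The same held for several other cell types, such as epithelial, fibroblast, macrophage and T cell genes, so it does not test the sort. The mean of the endothelial list ranged from 7.66 to 8.36 on allogeneic arrays and from 7.96 to 9.88 on syngeneic arrays. The mean of 14 epithelial genes was also high, at 10.9 to 11.1 on allogeneic and 10.4 to 11.0 on syngeneic arrays, so the preparations held epithelial RNA and no value can be assigned to endothelial cells alone. In such bulk samples fewer cells of a type and less RNA per cell cannot be told apart. Syngeneic arrays 3 and 4 stood apart from the others on the first principal component, with scores of 28.8 and 51.1. Scores were 4.89 and -3.67 on syngeneic arrays 1 and 2 and -27.4 to -13.2 on allogeneic arrays, so the groups did not overlap on this component. Syngeneic arrays 3 and 4 also had the highest endothelial list means (9.02 and 9.88).

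Mmp7, the gene of matrilysin, was lower in the allogeneic than in the syngeneic group, and it was the sole member to pass the test. The inhibitor genes Timp3 and Timp1 were at lower signals on every allogeneic array than on any syngeneic array, but did not pass over all genes. Mmp2, Mmp9, Mmp10, Mmp13, Mmp14 and Timp2 overlapped between the groups. Log2 changes of the 9 members ran from -1.17 to 0.32 with a median of -0.23, against a median of -0.0050 over all genes, and 7 of the 9 were negative, as were 51% of all genes. At a limma adjusted p below 0.05, 1 of 9 members was lower and 0 were higher, where 0.469% of all genes passed, 0.113% lower and 0.356% higher. In 3 of 9 members all allogeneic arrays lay below all syngeneic arrays, which held for 3.36% of all genes. Without adjustment, 3 members had a limma p below 0.05, against 13.2% of all genes. Because the members were chosen with earlier results of these data known, these shares do not test the family.

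**Figure D1:**
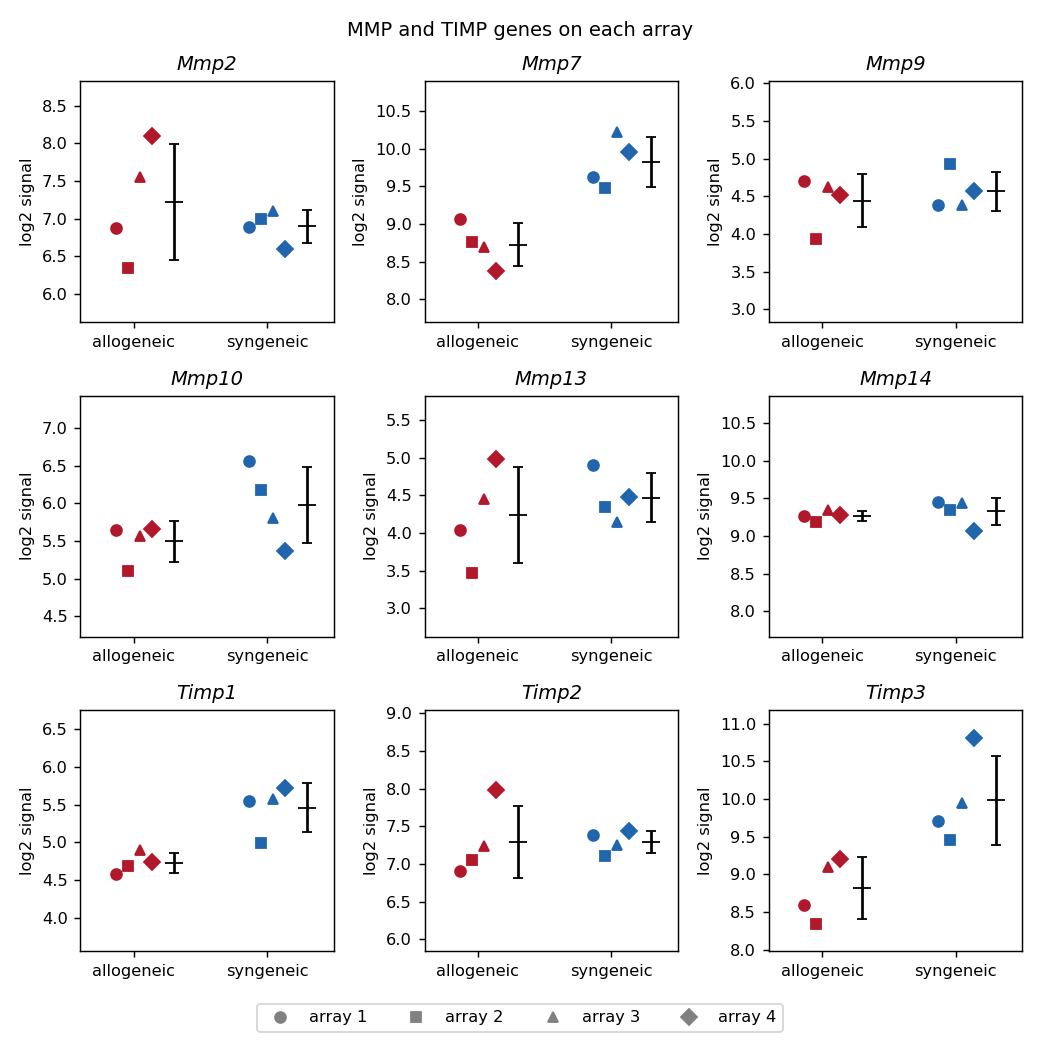
Log2 signal of each of the 9 measured members on each array, allogeneic left and syngeneic right, with marker shape giving the array number and black bars the mean ± SD (n = 4 each). Every panel spans the same log2 range. The groups are apart for Mmp7, Timp1 and Timp3 and overlap for the other 6 genes.

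The promoters of Mmp7, Timp1 and Timp3 are shown because the groups did not overlap for these genes, and those of Mmp10 and Mmp13 because they are secreted proteases of the same gene cluster on chromosome 9 as Mmp7. The sequences are RefSeq's for GRCm38.p6, all on the plus strand, and end at the base before the annotated start: chr9:7691965-7692089 for Mmp7, chr9:7502217-7502341 for Mmp10, chr9:7272389-7272513 for Mmp13, chrX:20870041-20870165 for Timp1 and chr10:86300287-86300411 for Timp3. Capitals mark matches on either strand to the AP-1 motif TGANTCA, the ETS core AGGAAG and the TATA box TATAAA, none of which overlap here.
Mmp7: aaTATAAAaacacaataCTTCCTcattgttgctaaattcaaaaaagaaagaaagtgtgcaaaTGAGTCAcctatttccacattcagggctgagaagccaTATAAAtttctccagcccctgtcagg
Mmp10: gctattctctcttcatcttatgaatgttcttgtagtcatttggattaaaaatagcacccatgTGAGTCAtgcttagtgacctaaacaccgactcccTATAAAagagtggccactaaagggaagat
Mmp13: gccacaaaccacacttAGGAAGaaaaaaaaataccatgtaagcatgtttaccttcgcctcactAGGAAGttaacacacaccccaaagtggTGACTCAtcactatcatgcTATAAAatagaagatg
Timp1: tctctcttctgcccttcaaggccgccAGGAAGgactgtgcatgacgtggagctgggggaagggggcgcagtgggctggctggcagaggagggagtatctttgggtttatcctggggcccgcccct
Timp3: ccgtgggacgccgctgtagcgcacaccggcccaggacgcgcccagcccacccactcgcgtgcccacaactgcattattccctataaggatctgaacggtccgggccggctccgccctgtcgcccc

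The 3 protease promoters each held 1 AP-1 match, the motif of FOS and JUN dimers. It began 63 bases before the start in Mmp7, 63 bases in Mmp10 and 35 bases in Mmp13. In each a TATA match followed, 26 bases before the start in Mmp7, 29 in Mmp10 and 16 in Mmp13. Of the 7 members with a promoter in the table (Mmp7, Mmp10, Mmp13, Mmp14, Timp1, Timp2 and Timp3), these 3 had an AP-1 match and a TATA match in the 250 bases before the first listed start, and 5 had an ETS match. Over all 32841 promoter windows of that length, 6.75% held the AP-1 letters, 12.4% the TATA letters and 29.5% the ETS letters. Timp1 and Timp3 had an ETS match but none to the other 2 motifs in this window. A second annotated start of Mmp7 had no AP-1 match. The log2 changes of these 3 genes were -1.10 for Mmp7, -0.48 for Mmp10 and -0.23 for Mmp13, and differences between them were not tested.

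Mmp7 encodes matrilysin, a small secreted MMP that in mice activates the alpha-defensins of Paneth cells in the small intestine. Its signal was 9.07, 8.76, 8.70 and 8.37 on the allogeneic arrays, against 9.62, 9.48, 10.2 and 9.96 on the syngeneic arrays. The groups did not overlap, and the gap between the highest allogeneic and the lowest syngeneic array was smaller than the range within either group. The means were 8.72 ± 0.28 in the allogeneic and 9.82 ± 0.33 in the syngeneic group (SD, n = 4 each). Mmp7 was thus 2.14-fold lower, with a log2 change of -1.10 ± 0.19 (SE), a 95% interval of -1.51 to -0.68 and a limma adjusted p = 0.0387. By p it was rank 74 of all genes.

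The call of Mmp7 was close to the threshold. When each array in turn was left out, it was lost in 7 of 8 fits, with limma adjusted p between 0.0329 (without syngeneic array 2, where it held) and 0.123 (without allogeneic array 2), while the log2 change stayed between -1.21 and -0.96. The adjusted p also depends on the other genes of each fit. Without allogeneic array 1, where 4 genes passed as higher and 5 as lower, the limma adjusted p of Mmp7 was 0.0825. Its unadjusted limma p there was 0.00012, against 0.00013 with all arrays, and it was 0.00050 without allogeneic array 2. The call was also lost without syngeneic arrays 3 and 4 (log2 change -0.83, limma adjusted p = 0.13), with the endothelial list mean as a covariate (-0.99, limma adjusted p = 0.116) and with the epithelial list mean as a covariate (-0.84, limma adjusted p = 0.211). Unadjusted limma p in these fits was 0.0011, 0.00083 and 0.0016, in that order. Epithelial list means were lowest on syngeneic arrays 4 and 3 (10.4 and 10.7), the arrays with the highest Mmp7 signals. A second probe set of Mmp7 read 2.92, 2.86, 3.02 and 3.19 on allogeneic arrays, against 3.14, 3.07, 3.42 and 3.08 on syngeneic arrays. These values lie around the highest Y-linked value, and this probe set did not pass (log2 change -0.18 ± 0.12 SE, limma adjusted p = 0.572 in a fit of all 23521 probe sets with 1 symbol).

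Mmp10 and Mmp13 are secreted enzymes of the same gene cluster. Mmp10 encodes stromelysin-2, which cuts a broad range of matrix proteins. It read 5.65, 5.10, 5.56 and 5.66 on allogeneic arrays, against 6.56, 6.18, 5.80 and 5.37 on syngeneic arrays. Syngeneic array 4 lay within the allogeneic range and the other syngeneic arrays above it. The log2 change was -0.48 ± 0.24 (SE, 95% interval -1.02 to 0.06, limma adjusted p = 0.436). Without syngeneic arrays 3 and 4 it was -0.87 (limma adjusted p = 0.166). The covariate fits gave -0.78 for the endothelial and -0.92 for the epithelial list mean (limma adjusted p = 0.274 and 0.232). With 1 array left out the log2 change lay between -0.68 (without syngeneic array 4) and -0.29 (without syngeneic array 1), and Mmp10 did not pass in any of these 8 fits.

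Mmp13 encodes collagenase-3, an enzyme that cleaves fibrillar collagen. Its signal was low, at 4.04, 3.47, 4.45 and 4.98 on allogeneic and 4.91, 4.35, 4.15 and 4.48 on syngeneic arrays. The allogeneic arrays held both the lowest and the highest value. The log2 change of -0.23 ± 0.29 (SE, 95% interval -0.87 to 0.40, limma adjusted p = 0.788) became 0.02 without allogeneic array 2.

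By RefSeq's gene order, Mmp7, Mmp10 and Mmp13 belong to a run of 10 neighbouring Mmp genes on chromosome 9, all of which were measured. Mmp7 and Mmp13 sit at its 2 ends. Of the 10, 1 (Mmp7) was lower in the allogeneic group at a limma adjusted p below 0.05, 9 did not pass, and 7 had a negative log2 change. The genes between Mmp7 and Mmp10, which are Mmp20, Mmp27 and Mmp8, had log2 changes of 0.03, -0.07 and -0.13 (limma adjusted p = 0.952, 0.848 and 0.77). Their signals were low, with group means of 3.87 to 4.55, where those of Mmp7 were 8.72 and 9.82. Whether Mmp7 differed from its neighbours was not tested.

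The gelatinases Mmp2 and Mmp9 cut denatured collagen and basement membrane collagen. Mmp2 read 6.87, 6.35, 7.55 and 8.10 on allogeneic arrays, against 6.89, 7.00, 7.11 and 6.60 on syngeneic arrays. The allogeneic arrays spread on both sides of the syngeneic ones, with an SD of 0.77 against 0.22. The log2 change was 0.32 ± 0.32 (SE, 95% interval -0.39 to 1.02, limma adjusted p = 0.73). It was 0.02 without allogeneic array 4 and 0.61 without allogeneic array 2 (limma adjusted p = 0.984 and 0.457). Mmp9, the gelatinase of neutrophils and macrophages, read 4.70, 3.93, 4.62 and 4.52 on allogeneic and 4.38, 4.93, 4.38 and 4.57 on syngeneic arrays. Its groups overlapped, with a log2 change of -0.12 ± 0.19 (SE, 95% interval -0.55 to 0.30, limma adjusted p = 0.845), which became 0.05 without allogeneic array 2 and 9.4e-05 without syngeneic array 2. The mean of 9 neutrophil genes was lower on allogeneic arrays (4.15 to 4.41) than on syngeneic ones (4.69 to 4.81). In that list 6 log2 changes were negative and 3 positive, with a median of -0.15. The lowest were those of S100a8 (-1.94), which passed, and of Ly6g (-1.17) and S100a9 (-0.83), which did not (limma adjusted p = 0.222 and 0.059). Camp and Retnlg lay at or below the highest Y-linked value. S100a8 averaged 3.07 in the allogeneic group, also below that value, and 5.01 in the syngeneic group.

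Mmp14 encodes the membrane-type enzyme MT1-MMP, which cuts collagen at the cell surface and activates the Mmp2 proenzyme. It was the steadiest member. Its signal was 9.27, 9.18, 9.34 and 9.28 on allogeneic arrays, against 9.46, 9.34, 9.44 and 9.07 on syngeneic arrays. The groups overlapped, with a log2 change of -0.06 ± 0.12 (SE). The 95% interval of -0.31 to 0.20 was the narrowest of the 9 members (limma adjusted p = 0.879).

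Timp3 encodes the TIMP that binds to extracellular matrix and also blocks ADAM17 and aggrecan-cleaving ADAMTS enzymes. It read 8.59, 8.34, 9.10 and 9.21 on allogeneic arrays, against 9.71, 9.45, 9.95 and 10.8 on syngeneic arrays. Every allogeneic array lay below every syngeneic array, and syngeneic array 4 was highest. The means were 8.81 ± 0.41 in the allogeneic and 9.98 ± 0.59 in the syngeneic group (SD, n = 4 each). The difference, 2.25-fold lower in the allogeneic group, did not pass (log2 change -1.17 ± 0.28 SE, 95% interval -1.79 to -0.54, limma adjusted p = 0.108). With the endothelial list mean as a covariate the log2 change was -0.62 ± 0.14 (SE, limma adjusted p = 0.135), with the epithelial one -0.68 ± 0.26 (SE, limma adjusted p = 0.501), and without syngeneic arrays 3 and 4 it was -0.77 ± 0.23 (SE, limma adjusted p = 0.269). Before adjustment the limma p of Timp3 was 0.0018 with all arrays and no covariate, and 0.0012, 0.026 and 0.0092 in these fits, in that order. The endothelial list mean was 7.66, 7.73, 8.36 and 8.36 on the 4 allogeneic arrays, against 8.27, 7.96, 9.02 and 9.88 on the 4 syngeneic arrays. Timp3 lies inside the gene Syn3 in RefSeq, and Syn3 had a log2 change of 0.81 that did not pass (limma adjusted p = 0.226).

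Timp1 encodes a secreted inhibitor that is induced by cytokines and binds the proenzyme of Mmp9. It read 4.58, 4.68, 4.90 and 4.74 on allogeneic arrays, against 5.55, 4.99, 5.57 and 5.73 on syngeneic arrays. The signal was low, and its mean over the 8 arrays, 5.09, was below that of the median gene. Again no allogeneic array reached the lowest syngeneic one, which was array 2. The means were 4.72 ± 0.13 in the allogeneic and 5.46 ± 0.32 in the syngeneic group (SD, n = 4 each). The difference, 1.66-fold lower in the allogeneic group, did not pass (log2 change -0.73 ± 0.17 SE, 95% interval -1.11 to -0.36, limma adjusted p = 0.0998). Without syngeneic array 2 it passed (log2 change -0.89, limma adjusted p = 0.034). With the endothelial covariate it was -0.51, with the epithelial one -0.48 and without syngeneic arrays 3 and 4 it was -0.54 (limma adjusted p = 0.303, 0.495 and 0.346). Timp1 lies inside Syn1, whose log2 change was -0.27 (limma adjusted p = 0.485).

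Timp2 encodes the inhibitor that, bound to MT1-MMP, also takes part in the activation of the Mmp2 proenzyme. It read 6.91, 7.05, 7.24 and 7.98 on allogeneic arrays, against 7.38, 7.10, 7.25 and 7.43 on syngeneic arrays. Allogeneic array 4 was the highest of all and the groups overlapped. The log2 change was 0.00077 ± 0.22 (SE, 95% interval -0.48 to 0.48, limma adjusted p = 0.999). It was -0.23 without allogeneic array 4, and the signs of so small a change differed between processing settings.

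**Figure D2:**
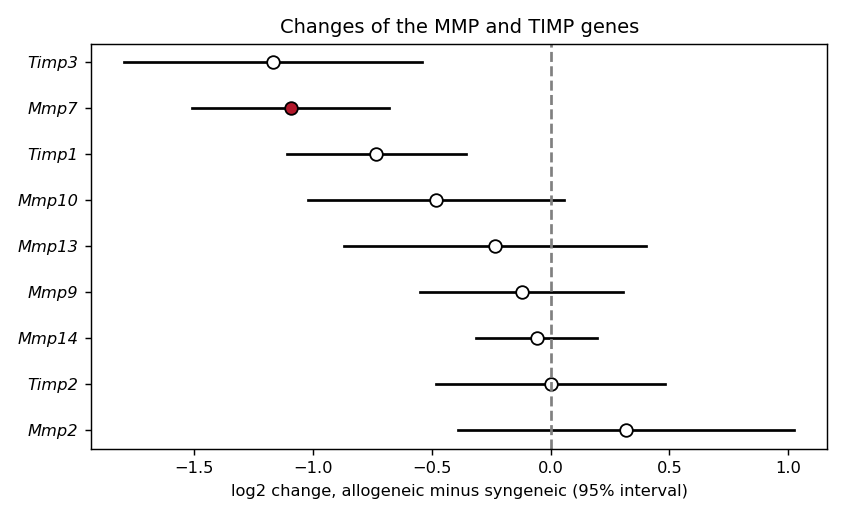
Log2 change (allogeneic minus syngeneic) of each member, with its 95% interval from limma over all genes; the filled point marks a limma adjusted p below 0.05. The intervals of Timp3, Mmp7 and Timp1 lie below 0, and only that of Mmp7 belongs to a gene past the threshold.

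Allogeneic array 4 had the highest signal of all arrays for Mmp2 (8.10), Timp2 (7.98) and Mmp13 (4.98). That array also had the highest mean of 10 fibroblast genes, 7.05, where the other allogeneic arrays had 6.21 to 6.39 and the syngeneic arrays 5.95 to 6.44. This was not particular to fibroblast genes, as its means of 3 glia genes (4.97) and 14 epithelial genes (11.1) were also the highest of all arrays. Of the 10 fibroblast genes 0 passed in limma (3 at an unadjusted p below 0.05, all higher), none lay at or below the highest Y-linked value, and 6 had a positive log2 change. Timp3 and the endothelial list were both highest on syngeneic array 4 and second on syngeneic array 3. The log2 change was below 0 for all 18 endothelial genes, and 0 of them passed in limma (6 at an unadjusted p below 0.05). The mean of 10 pericyte and smooth muscle genes was 7.29 to 7.99 on allogeneic and 7.49 to 8.34 on syngeneic arrays, again highest on syngeneic array 4. In limma 0 of these 10 genes passed, and likewise 0 of 11 macrophage, 7 T cell, 8 mast cell, 5 platelet and 3 glia genes. Without adjustment, 2 of the 10 pericyte and smooth muscle genes and 2 of the 8 mast cell genes had a p below 0.05, all lower, and 0 genes did in the other 4 lists. The epithelial list went the other way from Mmp7, Timp1 and Timp3, with 12 of 14 log2 changes positive and a median of 0.18. Of its genes 0 passed in limma, 5 had an unadjusted p below 0.05, all higher, and 4 were higher without overlap. Fabp2, the fatty acid binding protein of enterocytes, had its largest change (1.21, limma adjusted p = 0.0842). Over all genes, 13.2% had an unadjusted limma p below 0.05, and the groups did not overlap, in either direction, for 8.55%. The part of these cell type signals in the members' values was not tested beyond the covariate fits.

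**Figure D3:**
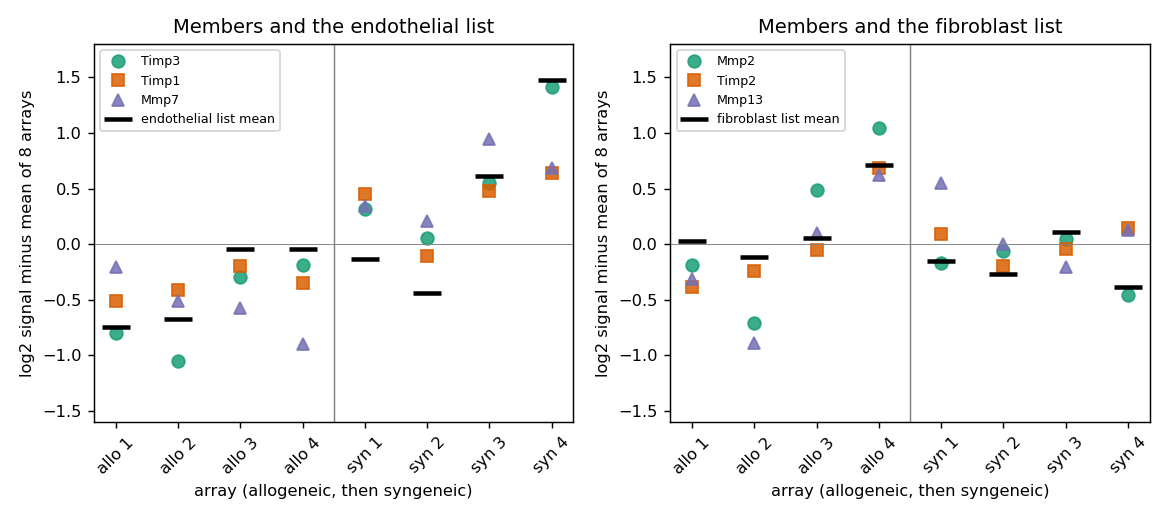
Signal on each array relative to the gene's mean over the 8 arrays (log2), allogeneic arrays left of the grey line and syngeneic arrays right of it. Left, Timp3, Timp1 and Mmp7 with the mean of 18 endothelial genes (black bars), where Timp3 and the endothelial mean are both highest on syngeneic array 4; right, Mmp2, Timp2 and Mmp13 with the mean of 10 fibroblast genes, where all 4 are highest on allogeneic array 4.

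No gene in the rest of the family passed. Of 17 other genes, 16 Mmp genes and Timp4, 0 passed in limma, 1 had an unadjusted p below 0.05, and the median log2 change was -0.01. Over all genes 13.2% had an unadjusted limma p below 0.05, which is the background for this count and those of the lists below. Changes in the rest of the family ran from -0.37 for Mmp1b to 0.37 for Mmp12. Mmp1b, a collagenase-like gene, had the smallest p of this list (limma adjusted p = 0.363), and its means of 2.43 in the allogeneic and 2.80 in the syngeneic group lay below the highest Y-linked value. Mmp11, the stromelysin-3 gene, averaged 5.53 ± 0.09 in the allogeneic and 5.82 ± 0.26 in the syngeneic group (SD, n = 4 each, limma adjusted p = 0.456). Mmp12, the macrophage elastase, had a log2 change of 0.37 ± 0.26 and Timp4 one of 0.31 ± 0.31 (SE, limma adjusted p = 0.609 and 0.725).

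Genes that activate, bind or clear MMPs went both ways. Of 15 measured, 0 passed in limma. Without adjustment 7 had a p below 0.05, 3 higher and 4 lower, and the median log2 change was 0.03. Lcn2, a lipocalin whose human protein forms a complex with MMP9, read 6.21, 6.34, 6.26 and 5.89 on allogeneic arrays, against 7.44, 6.67, 7.58 and 7.21 on syngeneic arrays. Its groups did not overlap, and its log2 change of -1.05 ± 0.20 (SE) just missed the threshold (limma adjusted p = 0.0551). Thbs1, the matrix glycoprotein thrombospondin-1, had a log2 change of -0.88 and A2m, the general protease inhibitor alpha-2-macroglobulin, one of -0.40 (limma adjusted p = 0.176 and 0.24). Tfpi2, a secreted Kunitz-type inhibitor of serine proteases, was at 0.59 (limma adjusted p = 0.24). Furin, the convertase that activates membrane-type MMPs, was at -0.35 and Reck, a membrane-anchored MMP inhibitor, at 0.03 (limma adjusted p = 0.296 and 0.98), both named after their values were seen.

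In the plasminogen system, whose product plasmin can activate MMP proenzymes, 0 of 8 measured genes passed in limma, 2 had an unadjusted p below 0.05, both lower, and the median log2 change was -0.13. Plaur, the urokinase receptor that gathers plasminogen activation at the cell surface, read 7.55, 7.36, 7.29 and 7.13 on allogeneic arrays, against 8.004, 8.34, 8.33 and 9.53 on syngeneic arrays. The groups did not overlap and syngeneic array 4 was far above the rest of its group. The log2 change was -1.22 ± 0.28 (SE, limma adjusted p = 0.098). Anxa2 and S100a10, which encode the subunits of a plasminogen-binding complex, were at -0.27 and -0.11 (limma adjusted p = 0.215 and 0.633), and Serpinf2, the plasmin inhibitor, at -0.12 (limma adjusted p = 0.746).

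Among ADAM and ADAMTS genes, related metalloproteases of which several are inhibited by TIMP3, 0 of 15 passed in limma. Without adjustment 6 had a p below 0.05, all lower, and the median log2 change was -0.22. Adam8, a protease of activated leukocytes, averaged 5.31 in the allogeneic and 6.12 in the syngeneic group without overlap (log2 change -0.81 ± 0.21 SE, limma adjusted p = 0.136). Adamts9 (-1.33), Adamts1 (-0.99), both proteases of proteoglycans, and Adam15 (-0.75), an ADAM of endothelial junctions, did not pass either (limma adjusted p = 0.242, 0.296 and 0.298). Standard errors of these 3 changes were 0.46, 0.38 and 0.29.

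Matrix proteins that MMPs cut had a median log2 change of -0.44. Of 23 measured, 0 passed in limma, 18 had a negative change, and 9 had an unadjusted p below 0.05, 7 lower and 2 higher. Hspg2, the basement membrane proteoglycan perlecan, was at -0.71, Tnc, the glycoprotein tenascin-C, at -0.66 and Lama5, a laminin chain, at -0.76 (limma adjusted p = 0.24, 0.241 and 0.264). Lum, the small proteoglycan lumican, was at 0.83 (limma adjusted p = 0.268). The groups separated in 0 of the 23 and in 8.55% of all genes. They also separated in 0 of the 17 other family genes. Among the 15 genes that activate, bind or clear MMPs, 3 were higher and 4 lower without overlap. Lower without overlap were 2 of 8 plasminogen system genes, 3 of 15 ADAM and ADAMTS genes and 3 of the 16 inducers below, and 0 of these were higher. These differences from the share of all genes were not tested.

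Cytokines and transcription factors known to induce MMP and TIMP genes had a median log2 change of -0.41, with 14 of 16 negative, 0 past the threshold in limma and 4 lower at an unadjusted p below 0.05. Fosl2, an AP-1 subunit, averaged 8.73 in the allogeneic and 9.30 in the syngeneic group, without overlap (log2 change -0.57 ± 0.14 SE, limma adjusted p = 0.103). The cytokine genes Tnf (-0.66 ± 0.16) and Il1b (-0.90 ± 0.25) were also separated between the groups without passing (SE, limma adjusted p = 0.104 and 0.146). Junb, another AP-1 subunit, was at -0.38 with overlapping groups (limma adjusted p = 0.309), and Fos and Jun were at -0.16 and -0.37 (limma adjusted p = 0.756 and 0.488; named for the motif after their values were seen).

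**Figure D4:**
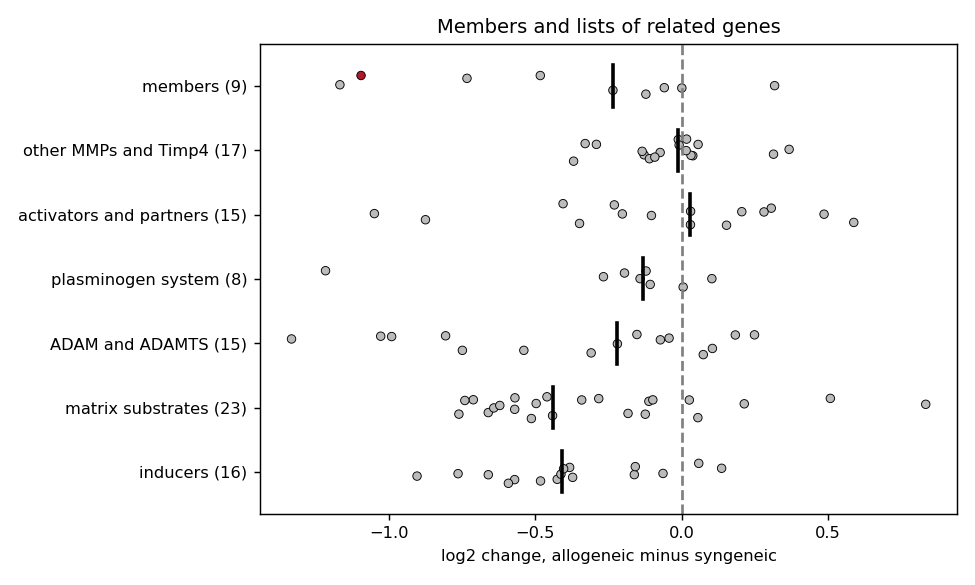
Log2 changes (allogeneic minus syngeneic) of the 9 members and of 6 lists of related genes, 1 point per gene and the list's median as a black bar, with the number of genes in parentheses. The filled red point, Mmp7, is the sole gene of these lists with a limma adjusted p below 0.05.

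Genes with the profile most like those of Mmp7 and Timp1 were sought among the genes at or above the median gene, by the root mean square difference of log2 values centred on each gene's mean over the 8 arrays. Timp1 itself lay below the median gene. For Mmp7 the nearest 5 were Mir1932, 6330407A03Rik, Lcn2, Cxcl2 and Snord99, with differences of 0.20 to 0.24. Their log2 changes lay between -0.86 and -1.05, near that of Mmp7 because they were chosen for a like profile over the same arrays. For Timp1 the nearest 5 were H2-M3, an MHC class Ib heavy chain, Adgra2, an adhesion receptor of brain vessel growth, Znfx1, Csf1, the macrophage growth factor, and Tapbp, the tapasin of peptide loading, with differences of 0.13 to 0.14. Their log2 changes lay between -0.50 and -0.70, fixed by the choice in the same way.

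**Figure D5:**
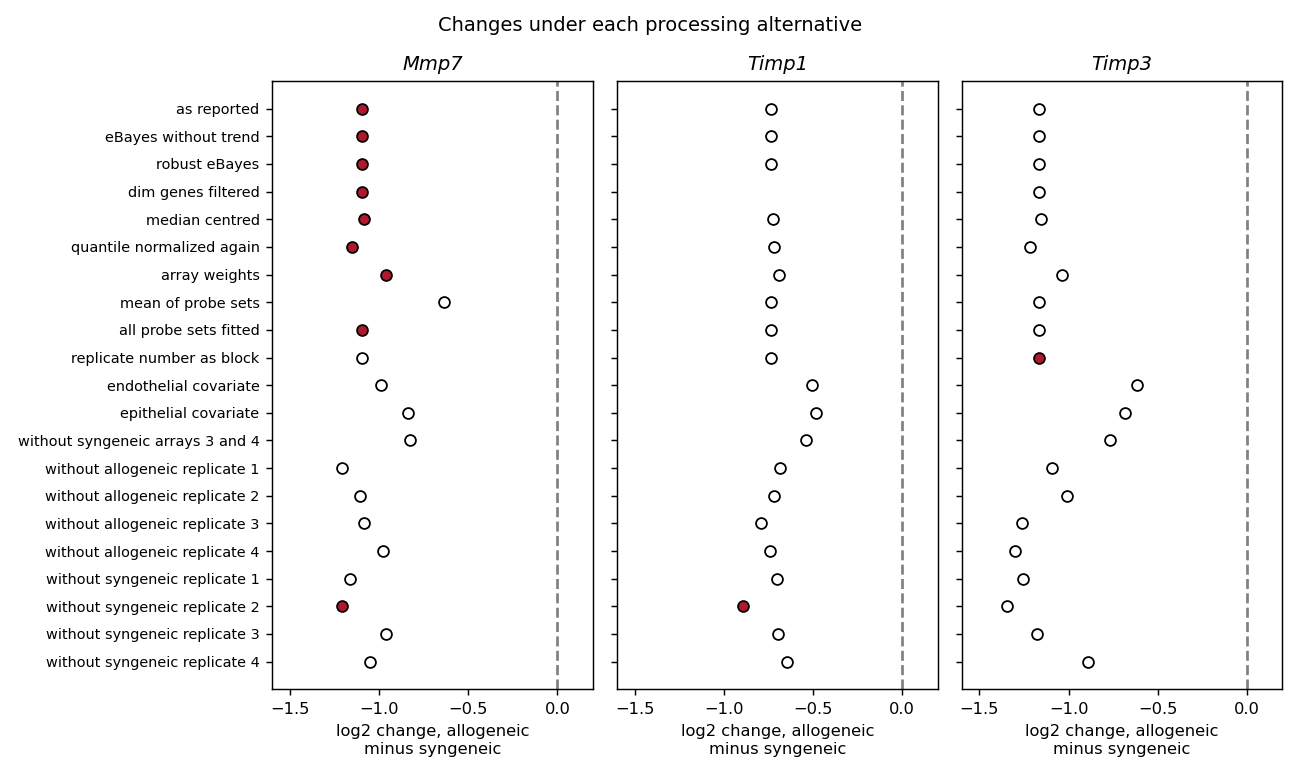
Log2 change of Mmp7, Timp1 and Timp3 as reported and under each of 20 processing alternatives (19 for Timp1, which a filter on dim genes removed); filled points have a limma adjusted p below 0.05. All changes are below 0, and those of Timp3 are smallest with the covariates and without syngeneic arrays 3 and 4.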

How the data were processed

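Per the submitters' processing notes the authors used RMA in Affymetrix Expression Console 1.4.1, and the deposited table holds its log2 values (background correction, quantile normalization, summary on the log2 scale); the annotation used is not given in the sources used here, and no detection call was at hand. Of 41345 probe sets, 23521 had 1 gene symbol in the platform annotation. Each of the 22180 genes was read from its probe set of highest mean; 1 member, Mmp7, had a second. Groups and replicate numbers came from the titles. limma 3.58.1 in R 4.3.3 (lmFit, eBayes with an intensity trend) gave changes, allogeneic minus syngeneic, with Benjamini-Hochberg adjustment over all genes and a threshold of 0.05. The pipeline was tested on simulated data. Members and lists were chosen with earlier results of these data known. Named genes were all members, up to 4 genes of smallest p per list, and 5 nearest profiles for the Mmp and the Timp member of smallest p. The titles do not say whether equal replicate numbers pair the arrays. Correlations of same-numbered deviations over all genes were -0.10 to 0.10, which does not settle pairing for single genes. Alternatives covered the variance prior, filter, scaling, array weights, probe set rule, block, covariates, arrays left out and the threshold. The number of arrays limits the precision. No batch was given.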

Additional observations from a re-analysis of the deposited data

Results flagged for a closer look

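Arrays far from the other 3 of their group were sought for 42 named genes, 84 groups of 4 arrays in all, of which chance flags about 1 in 20. Allogeneic array 2 was low for Mmp10, at 5.10 against 5.56 to 5.66 on the other allogeneic arrays. The same array was high for Mmp11, at 5.66 against 5.48 to 5.50.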

How the results depend on the processing

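Mmp2, Mmp7, Mmp10, Mmp14, Timp1 and Timp3 kept the sign of their log2 change under every alternative run, while 12 of 20 alternatives ended the call of Mmp7. Its log2 change was -0.64 for the mean of its probe sets, -1.10 with the replicate block (limma adjusted p = 0.0675), -0.99 with the endothelial covariate, -0.84 with the epithelial one, -0.83 without syngeneic arrays 3 and 4, and -1.21 to -0.96 with 1 array left out. So 0 members were lower for the mean of probe sets, with either covariate and without syngeneic arrays 3 and 4, 0 to 2 with 1 array left out, and 2 (Mmp7 and Timp1) at an adjusted p below 0.1. Whether the replicate numbers pair the arrays is not known. As a block they gave 1 lower member, Timp3 (-1.17 ± 0.14 SE, limma adjusted p = 0.0275). Timp1 ranged from -0.89 to -0.64 and Timp3 from -1.34 to -0.89 with 1 array left out. The sign turned for Timp2 after renewed quantile normalization (-0.035) and with array weights (-0.057), and with 1 array left out, which gave -0.23 to 0.13 for Timp2, -0.21 to 0.049 for Mmp9 and -0.48 to 0.022 for Mmp13. Of the related lists, 1 gene that activates or binds MMPs was lower with dim genes filtered, with array weights, without syngeneic array 2 and at an adjusted p below 0.1, and 1 of the plasminogen system without syngeneic array 4 and at that threshold. Over all genes, 79 were higher and 25 lower; these counts were 203 and 102 at an adjusted p below 0.1, 138 and 55 with dim genes filtered, 19 and 9 with the endothelial covariate, 4 and 3 with the epithelial one and 26 and 12 without syngeneic arrays 3 and 4. The replicate block gave 40 higher genes, renewed quantile normalization 46, and array weights 39 lower genes. With 1 array left out, 4 to 145 genes were higher and 4 to 35 lower. The filter on dim genes removed Mmp9, Mmp13 and Timp1. The cause of these shifts was not tested.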
